A study of Mus musculus with 23 samples.

Results

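The strong Zbtb11 windows at promoters were 736 of the 7500 consensus windows (9.81%) for which normalised ChIP-seq coverage was available in mouse embryonic stem cells (ESCs). A window was a member when its mean coverage over the 4 libraries made with an antibody to Zbtb11 was above 308.9 and when it overlapped, by at least 1 base, the region from 2000 bases upstream to 500 bases downstream of an annotated transcript start. The limit lies 1.5 interquartile ranges above the upper quartile of all windows (147.7). A further 121 windows passed the same limit away from promoters, and 3520 windows at promoters lay below it. The mean over the Zbtb11 libraries chose the members, so their coverage in these libraries is a description only. Per the study, the 7500 windows are peaks found with both the Zbtb11 antibody and FLAG, so every window was also a FLAG-Zbtb11 peak. Beyond that, the rule did not use coverage in the FLAG-Zbtb11 libraries, the sequence of the windows or the RNA of their genes.

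All samples were cultures of the mouse ESC line E14 or of lines made from it, grown without feeder cells in serum and leukaemia inhibitory factor. ChIP-seq with the Zbtb11 antibody was performed in 4 replicates of untreated Zbtb11 WT/WT Rosa26 WT cells, and FLAG ChIP-seq in 3 replicates of untreated Zbtb11 FLAG/FLAG Rosa26 WT cells, a homozygous line with a FLAG tag at the start of the endogenous protein. RNA-seq was performed on 3 replicates each of 3 groups after 48 h of treatment: Zbtb11 lox/lox Rosa26 ERt2-Cre cells with ethanol (EtOH control), the same cells with 250 nM 4-hydroxytamoxifen (4OHT), which activates the Cre recombinase and deletes exon 3 of *Zbtb11* (*Zbtb11* KO), and 4OHT at the same dose on cells that are Zbtb11 WT/WT Rosa26 WT (4OHT control). The *Zbtb11* KO and the EtOH control are the same edited line, derived from single cells, and both carry the floxed alleles and the Cre transgene at *Rosa26*. The 4OHT control lacks both and received 4OHT in place of ethanol, so the effects of genotype and of treatment cannot be told apart between the controls. Each RNA library held between 14301457 and 23876604 counts on genes. The replicates are biological replicates per the study's methods.

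Zbtb11 is a DNA-binding protein with zinc fingers and a BTB domain, the kind of domain through which such factors pair with each other and recruit partners. Most mitochondrial proteins are encoded in the nucleus, and the promoters of many of these genes are bound by nuclear respiratory factor 1 (NRF-1) and by GABP, also called NRF-2, an ETS-type factor that recognises sequences with the core GGAA. Promoters of this class often lie in CpG-rich DNA, lack a TATA box and drive genes that are expressed in most cell types.

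Sequences from the 150 bases before the transcript start are shown for 12 target genes, because the results below turn on a short word, GGAAC, and on its direction relative to the gene. They were read from the mm9 genome on the strand of the gene, 5′ to 3′, up to the base before the start that lies nearest to the centre of the window. Capitals mark GGAAC where it reads along the strand of the gene and GTTCC where it reads against it. The first 6 are the genes that fell most in *Zbtb11* KO cells:
Trdmt1 (chr2:13466292-13466441, minus strand): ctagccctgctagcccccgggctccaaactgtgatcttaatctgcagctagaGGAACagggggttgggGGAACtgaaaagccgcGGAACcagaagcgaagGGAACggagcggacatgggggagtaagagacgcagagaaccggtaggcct
Hus1b (chr13:31039629-31039778, minus strand): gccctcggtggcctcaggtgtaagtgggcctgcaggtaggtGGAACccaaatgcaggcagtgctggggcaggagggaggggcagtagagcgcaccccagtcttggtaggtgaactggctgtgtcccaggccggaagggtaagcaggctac
Slc35a3 (chr3:116415176-116415325, minus strand): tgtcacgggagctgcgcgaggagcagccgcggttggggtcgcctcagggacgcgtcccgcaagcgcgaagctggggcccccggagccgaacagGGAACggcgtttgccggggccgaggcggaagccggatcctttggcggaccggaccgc
Hus1 (chr11:8911195-8911344, minus strand): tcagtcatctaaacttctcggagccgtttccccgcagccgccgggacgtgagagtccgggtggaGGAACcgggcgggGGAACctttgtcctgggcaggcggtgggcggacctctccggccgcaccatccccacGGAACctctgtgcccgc
Ankrd40 (chr11:94189165-94189314, plus strand): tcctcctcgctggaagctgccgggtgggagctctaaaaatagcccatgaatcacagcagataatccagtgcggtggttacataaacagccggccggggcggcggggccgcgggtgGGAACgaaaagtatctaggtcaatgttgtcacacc
Pigq (chr17:26078994-26079143, minus strand): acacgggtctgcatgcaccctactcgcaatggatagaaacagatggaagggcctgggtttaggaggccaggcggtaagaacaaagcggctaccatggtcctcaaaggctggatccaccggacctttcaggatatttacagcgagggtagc
The next 3 are the genes that rose most:
Prrg2 (chr7:52317774-52317923, minus strand): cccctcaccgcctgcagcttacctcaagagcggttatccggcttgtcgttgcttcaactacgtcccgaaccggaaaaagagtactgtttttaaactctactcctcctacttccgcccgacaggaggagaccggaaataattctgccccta
Pigc (chr1:163899280-163899429, plus strand): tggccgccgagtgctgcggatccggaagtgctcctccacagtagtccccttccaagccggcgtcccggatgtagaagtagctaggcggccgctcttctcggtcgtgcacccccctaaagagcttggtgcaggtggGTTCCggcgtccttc
Nmnat1 (chr4:148859282-148859431, minus strand): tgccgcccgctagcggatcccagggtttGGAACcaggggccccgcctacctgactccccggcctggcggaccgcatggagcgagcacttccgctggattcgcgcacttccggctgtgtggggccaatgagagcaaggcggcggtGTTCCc
The last 3 belong to the strongest windows at which no gene was called:
Senp1 (chr15:97923837-97923986, minus strand): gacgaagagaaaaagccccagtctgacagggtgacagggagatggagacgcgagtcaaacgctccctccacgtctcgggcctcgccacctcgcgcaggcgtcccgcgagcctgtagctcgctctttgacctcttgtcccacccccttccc
1110038F14Rik (chr15:76778819-76778968, plus strand): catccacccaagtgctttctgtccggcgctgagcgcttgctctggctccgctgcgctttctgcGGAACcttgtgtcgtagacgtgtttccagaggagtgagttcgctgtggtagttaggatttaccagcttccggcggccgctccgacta
Tnpo3 (chr6:29559812-29559961, minus strand): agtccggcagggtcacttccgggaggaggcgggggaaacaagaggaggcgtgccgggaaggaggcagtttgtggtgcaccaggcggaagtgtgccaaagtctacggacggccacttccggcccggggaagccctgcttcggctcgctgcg
*Trdmt1* had 4 copies of GGAAC along its strand within 150 bases of the start and *Hus1* had 3, while *Slc35a3*, *Ankrd40* and *Hus1b* had 1 each and *Pigq* none. The *Pigq* start used here (26078993) lies inside the gene, whose annotated 5′ end is at 26081455. *Prrg2*, *Senp1* and *Tnpo3* had no copy in either direction. *Pigc* had 1 copy against its strand, and *Nmnat1* had 1 in each direction. *1110038F14Rik*, which was not called, had 1 along.

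Coverage was high over the members in every library. The median over the 736 windows was 467.9, 644.4, 452.6 and 714.0 in Zbtb11 replicates 1 to 4, and 574.6, 563.7 and 343.6 in FLAG-Zbtb11 replicates 1 to 3. Over the 3520 weaker windows at promoters the medians of the same 7 libraries lay between 71.2 and 82.3. FLAG-Zbtb11 replicate 3 had the lowest median over the members, with the 10th percentile of members at 189.6, still above the 90th percentile of the weaker promoter windows in it (175.8). All values of a library were whole multiples of a smallest step, which was taken as 1 read after scaling. A member held at least 141 such steps in each Zbtb11 library and at least 17, 10 and 46 in FLAG-Zbtb11 replicates 1, 2 and 3, where the median was at least 363. The coefficient of variation of a member over the 4 Zbtb11 libraries had a median of 23.4% (quartiles 15.0 and 29.9%). This spread includes differences in scale between whole libraries, whose medians over the members ran from 452.6 to 714.0. Such differences are shared by the members, so the coefficient does not measure how far ranks vary between replicates.

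**Figure D1:**
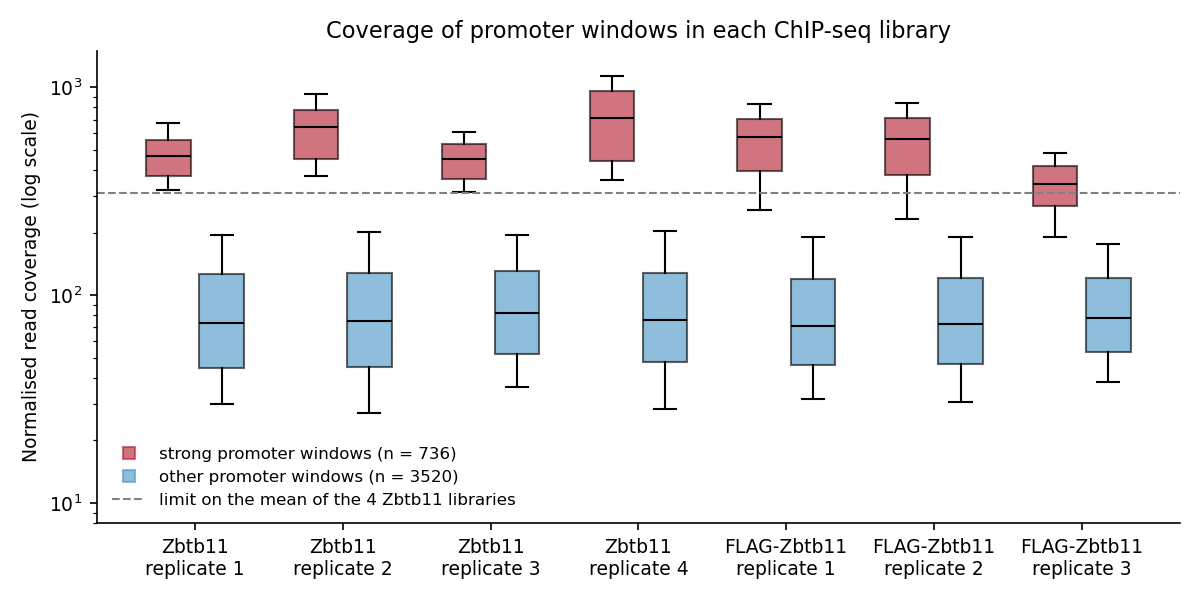
Normalised read coverage (log scale) in each of the 7 ChIP-seq libraries for the strong promoter windows (n = 736) and the other promoter windows (n = 3520), as median, quartiles and 10th to 90th percentile; the dashed line is the limit of 308.9 on the mean of the 4 Zbtb11 libraries. The medians of the strong windows lie between 343.6 and 714.0 and those of the other windows between 71.2 and 82.3.

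Single libraries placed most members on the same side of the limit. In 642 members all 4 Zbtb11 libraries were above 308.9, in 54 members 3 libraries were, and in 40 members 2 or fewer. The rule did not use FLAG-Zbtb11 coverage, although every window, strong or weak, was also a FLAG-Zbtb11 peak. A limit computed in the same way from the FLAG-Zbtb11 mean was 260.5. Above it lay 643 members (87.4%) and 113 of the 3520 weaker promoter windows. The 3 windows just inside the limit lay at *1700084E18Rik*, *Ap1b1* and *Zdhhc4* (309.9, 309.7 and 309.1), and the 3 just outside at *Psma6*, *Nedd1* and *Zbtb24* (307.5, 306.9 and 305.8).

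The strongest member lay between *Senp1*, which encodes a SUMO protease, and *Pfkm*, which encodes a phosphofructokinase of glycolysis (chr15:97923423-97924622, mm9). Its coverage was 988.1, 1467, 851.3 and 1801 in the Zbtb11 libraries and 1077, 1168 and 614.6 in the FLAG-Zbtb11 libraries. The next were at *Man2c1* (a mannosidase, mean 1231), at *1300018I17Rik* and *Zfp276* (1182) and at *1110038F14Rik* (1121). *1110004E09Rik*, *Tnpo3* (a nuclear import receptor), *Banp*, *Trim41*, *Heatr6* and *Zmpste24* (a protease that matures lamin A) followed with means between 1054 and 1104. Of these 10 windows, 4 had a gene that changed in *Zbtb11* KO cells, against 183 of all 736 members.

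The members lay at 972 annotated genes, of which 883 were protein-coding and 41 were lincRNAs. A single protein-coding gene was at 559 windows, 2 at 159, 3 at 3 and none at 15. Starts of protein-coding transcripts on both strands within 1000 bases of each other were found at 144 members (19.6%, 95% Wilson interval 16.9 to 22.6) and at 391 of the weaker promoter windows (11.1%, 10.1 to 12.2). The central 300 bases of members had a median GC content of 62.0% and a median CpG ratio (observed over expected) of 0.840. The weaker promoter windows had 63.7% and 0.797, and the 121 strong windows away from promoters 53.3% and 0.325. Intervals here and below cover counting error only. Windows and genes are not replicates of a condition, so these shares were not tested.

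In RNA of the EtOH control, genes with a strong window were expressed at moderate levels. Of the 972 genes, 870 passed the filter on low counts (843 protein-coding), and 102 did not (40 protein-coding). Their median level, in CPM per kb (counts scaled to library size and to the length of the exons), was 10.3 (quartiles 4.71 and 21.6). It was 8.53 for 3570 tested genes with a weaker window at the promoter and 4.69 for 9732 tested genes with no window there. The quartile ranges of the 3 classes overlapped.

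The test took replicates 2 and 3 of each group, since in all 3 groups replicate 1 lay farthest from the others and the study's methods leave out a distant replicate without giving its number. Per-library levels below are given for all 3 replicates, in CPM scaled by trimmed means. The 8 ESC markers, among them *Pou5f1*, *Sox2* and *Nanog*, summed to between 4114 and 5114 CPM in every library. None of them had a strong window, and only 6.39% of all tested protein-coding genes had one. The 6 feeder or fibroblast markers summed to between 16.1 and 26.4 CPM, with *Lum* at 0 in all 9 libraries. The neural markers *Pax6* and *Neurod1* summed to 39.5 to 59.8 CPM in the EtOH control and *Zbtb11* KO libraries and to 21.1 to 29.6 CPM in the 4OHT control. The part of this difference in comparisons with the 4OHT control was not tested. Markers of primitive endoderm, mesoderm and trophectoderm summed to 6.09 to 11.9, 3.08 to 5.28 and 6.01 to 11.2 CPM. Fewer cells of a type and less RNA per cell cannot be told apart in such libraries. The deletion itself could not be followed, because the annotation behind the counts assigns the transcript over *Zbtb11* to the gene *Rpl24*, and exon 3 is not counted on its own.

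In *Zbtb11* KO cells a minority of the target genes changed, and most of those fell. Of 870 tested genes with a strong window, 175 were lower than in the EtOH control (20.1%, against 1.35% of all 14172 tested genes) and 18 were higher (2.07%, against 0.148%), at an adjusted p under 0.05 in edgeR's quasi-likelihood test with 2 replicates per group. They made up 91.6% of the 191 genes that fell and 85.7% of the 21 that rose. Among the 3570 genes with a weaker promoter window, 6 fell and none rose, and among the 9732 without one, 10 fell and 3 rose. All the 175 genes were protein-coding, and 174 of them were lower in each of the 3 replicate numbers, the exception being *Capza1*. With the replicate number as a block, which pairs the groups, 207 target genes fell (background 1.85%) and 30 rose (0.423%). With all 3 replicates the counts were 112 of 872 (background 0.843%) and 8 (0.0558%), and with all 3 and the block they were 209 (1.79%) and 41 (0.46%).

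The decreases ranged from -3.32 to -0.30 on the log2 scale with a median of -1.03. Of the 175 genes, 91 fell at least 2-fold and 20 at least 4-fold. The increases ranged from 0.34 to 2.17 with a median of 0.63. Over all 870 target genes the median change was -0.06, against -0.01 for the genes with a weaker window and 0.01 for those with none, and 62.5% of target genes had a negative sign against 50.5% of all tested genes. For 612 of the 870 (70.3%) the 95% interval of the change lay within 1.5-fold in either direction. The genes that fell had a median level of 9.40 CPM per kb in the EtOH control, those that rose 4.61 and those not called 10.7.

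The largest decrease was at *Trdmt1*, a methyltransferase that modifies cytosine in tRNA. Its level was 6.21, 8.21 and 8.16 CPM in the EtOH control, 0.523, 0.877 and 0.746 CPM in *Zbtb11* KO and 6.86, 10.3 and 10.0 CPM in the 4OHT control. The *Zbtb11* KO libraries were all far below both controls, which overlapped each other. The log2 fold change against the EtOH control was -3.32 with a standard error of 0.21 (adjusted p = 1.47e-06, edgeR). *Trdmt1* did not have a particularly strong window, with a mean of 588.7 over the Zbtb11 libraries and 310.7 over the FLAG-Zbtb11 libraries.

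*Hus1* and its paralogue *Hus1b*, which encode subunits of a clamp that signals DNA damage, both fell. *Hus1* measured 73.8, 81.6 and 91.2 CPM in the EtOH control, 13.9, 13.1 and 12.1 CPM in *Zbtb11* KO and 101, 105 and 126 CPM in the 4OHT control, a log2 fold change of -2.77 ± 0.11 (standard error, adjusted p = 1.15e-07 in edgeR). *Hus1b* was expressed at 1.07 to 1.43 CPM in the EtOH control and 0.0994 to 0.349 CPM in *Zbtb11* KO. Reads of *Hus1b* are uncertain because the gene overlaps *Exoc2* on the same strand, and its call was lost when *Zbtb11* KO replicate 3 was left out.

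*Ankrd40*, which encodes a protein with ankyrin repeats, measured 53.8, 62.7 and 66.3 CPM in the EtOH control and 8.54, 9.94 and 9.49 CPM in *Zbtb11* KO. Its level in the 4OHT control was 68.6 to 82.6 CPM, and the log2 fold change was -2.73 ± 0.09 (adjusted p = 1.63e-08, edgeR). Among all 870 target genes this adjusted p was the smallest. *Zmpste24*, which had one of the 10 strongest windows, fell from 34, 44.1 and 49.5 CPM to 7.21, 12.2 and 11.3 CPM. The groups did not overlap for either gene.

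**Figure D2:**
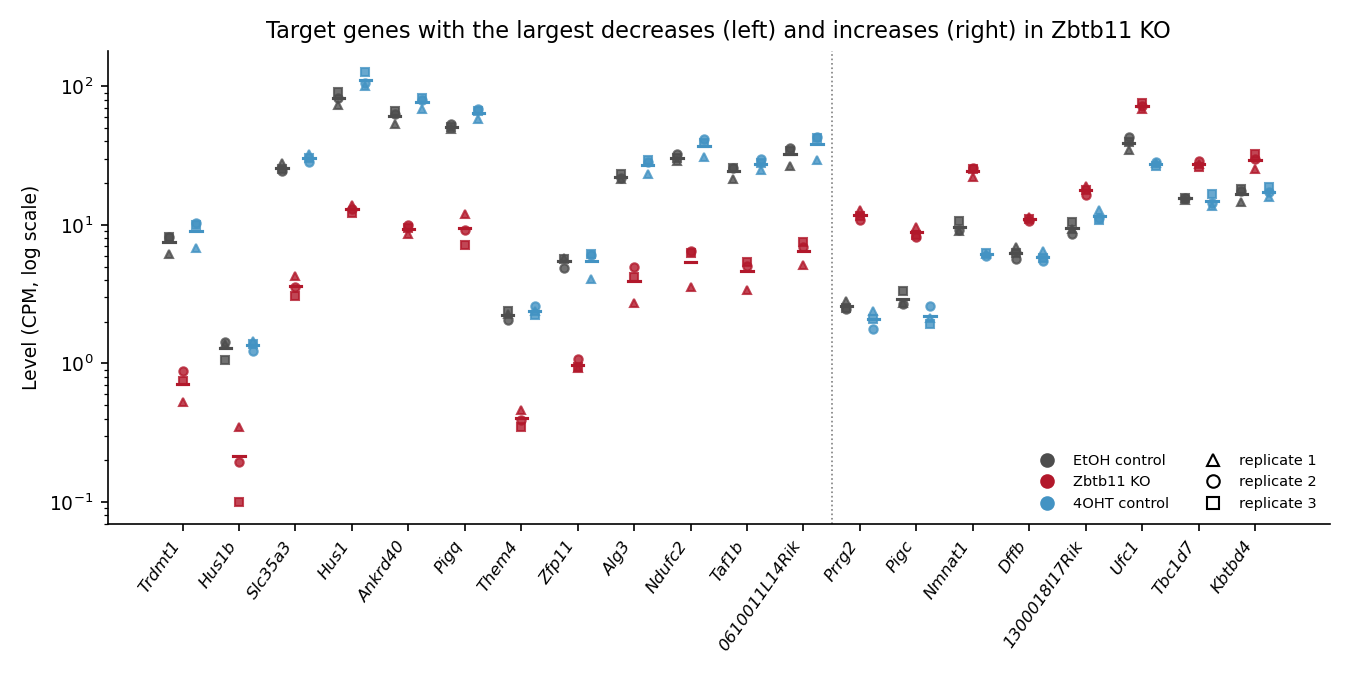
Level in CPM (log scale) of target genes in each library, with the genes that fell most on the left and those that rose most on the right; colours are the 3 groups marker shapes the replicate numbers and short bars the means. For *Trdmt1*, *Hus1* and *Ankrd40* each *Zbtb11* KO library lies below all libraries of both controls, and for *Prrg2*, *Pigc* and *Nmnat1* each lies above them.

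The targets were then grouped by function. Lists of genes were taken by their symbols. Each is described by how many tested members had a strong window and how many of those were called. The median change over all 870 target genes was -0.06. The lists were drawn up with earlier results of these data known, and some name genes that fell, such as *Trdmt1* and *Trp53rk*. Their shares are therefore a description only. Over all 13195 tested protein-coding genes 843 had a strong window (6.39%). Of these 175 fell (20.8%) and 18 rose. Of the 870, 233 were in at least 1 of the lists, as were 85 of the 175 that fell.

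Genes for the mitochondrial ribosome, which translates the few proteins encoded in mitochondrial DNA, had a strong window in 21 of 81 tested cases, and 9 of the 21 fell while none rose. The median of the 21 was -0.37. None of the other 60 genes was called, and their median was -0.02. Calls were rare among all 12352 tested protein-coding genes without a strong window, of which 13 fell and 3 rose. *Mrpl48* went from 13.9, 17.4 and 19.2 CPM to 3.49, 5.21 and 4.28 CPM (log2 fold change -1.94 ± 0.14, adjusted p = 6.01e-06 in edgeR). The other 8 were *Mrpl1* (-1.64), *Mrpl44* (-1.63), *Mrpl30* (-1.49), *Mrpl3*, *Mrps31*, *Ict1*, *Mrpl13* and *Mrpl16*. The 2 strong-window members with the highest levels that were not called were *Mrpl40* (-0.26) and *Mrps16* (-0.06).

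Complex I, the respiratory enzyme that oxidises NADH, had strong windows at 7 of 37 tested subunit genes. Of the 7, 2 fell (28.6%, against 20.8% of all protein-coding genes with a strong window). *Ndufc2* measured 28.8, 32.2 and 30.4 CPM in the EtOH control, 3.54, 6.48 and 6.21 CPM in *Zbtb11* KO and 30.9 to 41.7 CPM in the 4OHT control (log2 fold change -2.30 ± 0.10). *Ndufa12* went from 31.9, 32.6 and 38.3 CPM to 17.1, 17.8 and 16.3 CPM (-1.05 ± 0.10). Another subunit gene that fell, *Ndufs7*, had no strong window. Among the subunits that were not called, *Ndufs1* measured 121 to 139 CPM in the EtOH control and 121 to 146 CPM in *Zbtb11* KO (0.02 ± 0.08). Of 10 genes for complex I assembly, 2 had a strong window, and *Ndufaf1* fell from between 15.4 and 18.8 CPM to between 3.49 and 4.77 CPM (-1.94 ± 0.13) while *Tmem186* changed by -0.14. Subunits of complexes II to V had a strong window in 1 of 43 cases, at *Atp5j*, which was not called.

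Other mitochondrial lists held further decreases and no increase. Increases were rare, at 18 of 843 protein-coding genes with a strong window, so their absence from small lists tells little. Genes for the assembly of complexes III to V and for coenzyme Q synthesis had 6 strong windows among 25 tested genes and 3 decreases. These were *Coq3* (a methyltransferase of coenzyme Q synthesis, 14.6, 13.9 and 15.4 CPM against 3.78, 3.75 and 3.53 CPM), *Taco1* (an activator of the translation of a complex IV subunit, -1.88) and *Atpaf1* (an assembly factor of ATP synthase, -1.11). *Pdss1* changed by -0.54 and was not called (adjusted p = 0.063 in edgeR), but it was called with the replicate block. Mitochondrial tRNA and translation had 16 strong windows among 95 tested genes and 6 decreases, at *Taco1*, *Mettl15*, *Gtpbp3*, *Trmu*, *Tars2* and *Mbtps2*. The symbol pattern of this list also takes genes with other roles, such as *Mbtps2*, a protease of the Golgi apparatus. Mitochondrial import had 4 strong windows among 39 tested genes, and 1 of the 4 fell (*Agk*, -1.28). This share (25%) was near the 20.8% of all protein-coding genes with a strong window. Mitochondrial DNA maintenance had 2 among 10, and 1 of the 2 fell. This was *Ssbp1*, the mitochondrial single-strand binding protein (38.0, 57.7 and 53.1 CPM against 31.8, 39.7 and 37.3 CPM). For *Ssbp1* the groups overlapped when replicate 1 was included.

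Regulators of mitochondrial genes were among the strong targets, but none passed the test. *Gabpa*, which encodes the DNA-binding subunit of GABP, shares a window with *Atp5j* on the opposite strand, with coverage of 543.5, 644.4, 546.1 and 620.9 in the Zbtb11 libraries. Its RNA was 168, 186 and 185 CPM in the EtOH control and 176, 178 and 179 CPM in *Zbtb11* KO (log2 fold change -0.05 ± 0.06). *Yy1*, a zinc finger factor, changed by -0.05 ± 0.07. *Tfam*, the main factor of mitochondrial DNA packaging and transcription, changed by 0.02 ± 0.07. The levels of all 3 overlapped between the EtOH control and *Zbtb11* KO.

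Genes of the secretory pathway formed another group. Of 88 tested genes for glycosylation and glycosylphosphatidylinositol (GPI) anchors, 13 had a strong window, 5 fell and 1 rose. *Slc35a3*, a nucleotide sugar transporter of the Golgi, measured 28.1, 24.5 and 25.1 CPM in the EtOH control and 4.30, 3.56 and 3.08 CPM in *Zbtb11* KO (-2.90 ± 0.13), although it overlaps *Hiat1* on the same strand. *Pigq*, of the first step of GPI synthesis, went from 49.3, 53.5 and 50.7 CPM to 11.9, 9.25 and 7.11 CPM (-2.67 ± 0.11). *Alg3*, a mannosyltransferase of N-glycan synthesis, went from 21.3, 21.9 and 23.3 CPM to 2.73, 4.97 and 4.18 CPM (-2.30 ± 0.12). *B4galt7* and *Dpagt1* also fell. *Pigc*, which acts in the same enzyme complex as *Pigq*, rose, from 2.72, 2.68 and 3.34 CPM to 9.70, 8.23 and 8.50 CPM (1.48 ± 0.19, adjusted p = 0.000835 in edgeR).

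Vesicle transport had 26 strong windows among 188 tested genes, with 11 decreases, no increase and a median of -0.21 over the 26. The decreases included the syntaxins *Stx18* (-2.04) and *Stx16* (-1.70), *Sar1b* (a GTPase of COPII vesicles, -1.63), *Vps25* (-1.69), *Vti1a*, *Sec22b* and *Sec13*. *Copa* and *Ap1b1* were not called, with changes of -0.04 and 0.11. *Vps25* overlaps *Ramp2* on the same strand, and its call was lost with all 3 replicates, with DESeq2 and without EtOH control replicate 3 or *Zbtb11* KO replicate 2 or 3. That of *Vti1a* was lost without EtOH control replicate 2 or *Zbtb11* KO replicate 2 or 3. Peroxisome and lipid genes had 9 among 62, with 4 decreases, at *Them4* (-2.58), *Acsf3* (-2.02), *Pex3* (-1.79) and *Acbd6* (-1.77). *Acsf3* overlaps another annotated gene on its strand, *Gm20388*.

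Several lists of nuclear RNA functions held decreases as well. Basal transcription and Mediator had 20 strong windows among 128 tested genes, with 9 decreases and 1 increase. *Taf1b*, a subunit of the RNA polymerase I factor SL1, went from 21.6, 25.8 and 25.6 CPM to 3.37, 5.07 and 5.42 CPM, and *Mnat1* (-1.56), *Supt7l* (-1.36) and *Gtf3c3* (-0.97) also fell. *Ints12*, a subunit of the Integrator complex, rose by 0.40. RNA processing had 28 among 181 with 10 decreases, led by *Ddx1*, an RNA helicase at 206, 232 and 239 CPM in the EtOH control and 57.5, 76.0 and 79.0 CPM in *Zbtb11* KO. In tRNA modification 12 of 47 tested genes had a strong window and 7 of the 12 fell, among them *Trp53rk*, *Adat2*, *Trub2* and *Dus1l* beside *Trdmt1*. *Trp53rk*, at 2.2 to 3.8 CPM in the EtOH control, lost its call with all 3 replicates (adjusted p = 0.112 in edgeR). It also lost its call without EtOH control replicate 3 or *Zbtb11* KO replicate 2 or 3. Ribosome biogenesis had 14 among 60 with 6 decreases, among them *Wdr36*, which went from 154, 184 and 182 CPM to 39.9, 55.7 and 50.4 CPM.

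Among the remaining lists, genes of the cytosolic ribosome had a strong window in 10 of 85 cases and none was called, with a median of -0.03 over the 10. *Rpl14* and *Rps26*, both above 500 CPM in every library, changed by -0.03 and -0.04. Zinc finger genes named Zfp had 27 strong windows among 343 tested genes and 5 decreases, led by *Zfp11* (-2.37), and both shares (7.87 and 18.5%) were close to those over all protein-coding genes. The proteasome, the anaphase-promoting complex and the COP9 signalosome had 13 among 68 with 6 decreases, such as *Psmg3* (-2.21) and *Anapc5* (-0.94). DNA repair and checkpoint had 8 among 77 with 4 decreases, at *Hus1*, *Hus1b*, *Rad54l2* (-1.42) and *Helq* (-0.90). *Brca1* and *Xrcc5* had strong windows but changed by -0.09 and -0.19 and were not called. At the *Brca1* window the FLAG-Zbtb11 mean was 43.2, far below the median of the members (494.1). None of 21 pluripotency genes had a strong window. With 6.39% of all tested protein-coding genes at a strong window, the absence from a list this small tells little.

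Of the 175 genes that fell, 90 were in none of the lists. Among the 20 largest decreases these were *Ankrd40*, *0610011L14Rik*, *5730455P16Rik*, *2810408M09Rik*, *Ino80b* and *A2ld1*. *Ino80b*, a subunit of the chromatin remodeller INO80, went from 5.80, 7.65 and 8.34 CPM to 1.34, 2.00 and 1.79 CPM (-2.07 ± 0.18). *0610011L14Rik* went from 26.6, 35.9 and 34.2 CPM to 5.11, 6.96 and 7.51 CPM (-2.27 ± 0.10). The libraries of the groups did not overlap for either gene, and the 4OHT control lay at 6.79 to 8.24 and 29.5 to 42.7 CPM. *5730455P16Rik* (-2.17) shares near-identical stretches with 8 other genes. None of the 27 tested target genes that do not code for protein was called, and 15 windows had no protein-coding gene at all.

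Reads of some of the genes above cannot be assigned with certainty. *Ndufc2*, *Mrpl48*, *Pigq* and *Pigc* each overlap another annotated gene on their strand (*Gm16053*, *D630004N19Rik*, *Nhlrc4* and *2810442N19Rik*). *Gtpbp3*, *Polr1b* and *Coq4* share stretches of at least 100 bases at 95% identity or more with 26, 24 and 22 other genes.

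The 18 genes that rose were few and mostly small in effect. *Prrg2*, which encodes a membrane protein with a Gla domain, measured 2.82, 2.46 and 2.50 CPM in the EtOH control, 12.9, 10.8 and 11.6 CPM in *Zbtb11* KO and 2.40, 1.77 and 2.10 CPM in the 4OHT control (2.17 ± 0.17, adjusted p = 1.2e-05 in edgeR). *Nmnat1*, an enzyme of NAD synthesis in the nucleus, measured 9.03, 9.20 and 10.8 CPM, then 22.2, 25.5 and 25.2 CPM, and 6.19, 5.96 and 6.26 CPM in the same order (1.35 ± 0.12). In both genes the *Zbtb11* KO libraries were above all libraries of both controls. *Ufc1*, the conjugating enzyme for the modifier UFM1, rose by 0.84 ± 0.08, *Kbtbd4* by 0.81 ± 0.10, *Tbc1d7* by 0.82 ± 0.11 and *Dffb* by 0.87 ± 0.14. The call at *Dffb* was lost without EtOH control replicate 2 or *Zbtb11* KO replicate 2 or 3. *Nmnat1* and *Ufc1* were also lower in the 4OHT control than in the EtOH control (-0.70 and -0.58), and *Nmnat1* shares near-identical stretches with 16 other genes, which makes its counts uncertain. When EtOH control replicate 2 or 3 or *Zbtb11* KO replicate 2 or 3 was left out, 8, 9, 10 and 7 genes rose, all of them among the 18.

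Genes at the strongest windows did not all pass the test. Among the members with no called gene the strongest were those of *Senp1* and *Pfkm*, *1110038F14Rik*, *Tnpo3*, *Banp*, *Trim41*, *Heatr6*, *Nudcd3*, and *Eif1ad* and *Banf1*. *Senp1* measured 50.8, 58.8 and 64.3 CPM in the EtOH control and 50.6, 58.9 and 59.0 CPM in *Zbtb11* KO, and *Tnpo3* measured 229, 237 and 247 CPM against 207, 224 and 224 CPM. Their log2 fold changes were -0.06 ± 0.08 and -0.11 ± 0.06. *1110038F14Rik* changed by -0.47 ± 0.13 and was called only with the replicate block. For *Senp1* the groups overlapped, and for *Tnpo3* they did not.

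The share of genes that fell was set against FLAG-Zbtb11 coverage, which had no part in the rule beyond the peak call shared by all windows. The 870 genes were split into 5 groups of 174 by the FLAG-Zbtb11 coverage of their window. From the lowest to the highest coverage 8, 11, 45, 54 and 57 genes fell, or 4.6, 6.32, 25.9, 31.0 and 32.8%. Increases were found at 8 and 10 genes of the upper 2 groups and at none in the other 3. The share rose between the second and the third group, at a coverage of about 449, and the 95% intervals of the upper 3 groups overlapped.

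The position of the start within the window was also set against the response. When the start lay at most 50 bases from the centre of the window, 103 of 343 genes fell (30.0%, 25.4 to 35.1). At 51 to 99 bases 45 of 179 fell (25.1%), and at 101 to 199 bases 21 of 144 (14.6%). Farther away the share was 4.5% of 111 genes at 208 to 400 bases and 1.08% of 93 genes at 404 to 2600 bases. Within the upper 3 groups of FLAG-Zbtb11 coverage the shares in the same order were 40.9, 33.9, 22.7, 8.47 and 2.63%. The share was highest for starts close to the centre also where coverage was high. Genes that share a window share its coverage, so these counts are not independent.

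**Figure D3:**
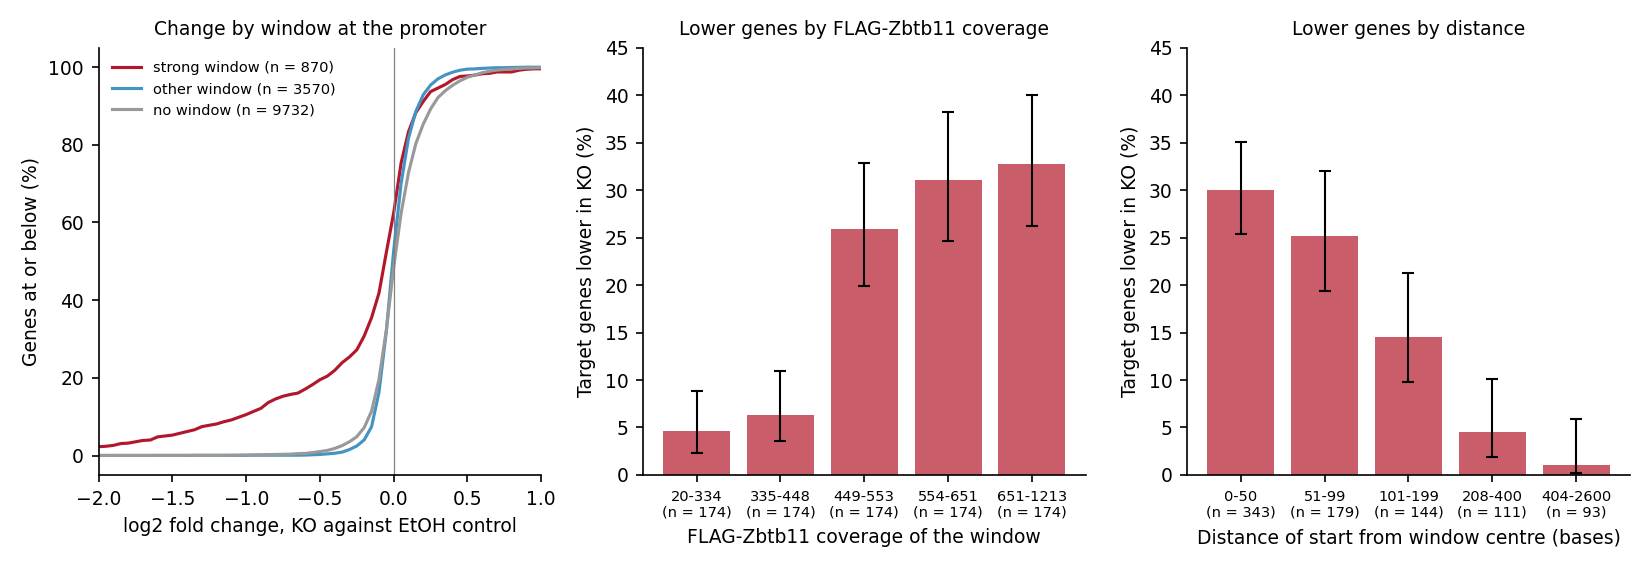
Left, cumulative share of genes (%) by log2 fold change between *Zbtb11* KO and EtOH control for genes with a strong, a weaker or no window at the promoter; middle and right, share of target genes lower in *Zbtb11* KO (%) by group of FLAG-Zbtb11 coverage and by distance (bases) of the start from the centre of the window, with 95% Wilson intervals. The share is 4.6% in the lowest and 32.8% in the highest coverage group, and 30.0% at the shortest and 1.08% at the longest distance.

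The DNA of the members was searched for 10 motifs in the central 300 bases, on both strands. The GABP or ETS motif CCGGAAG was found in 386 of 736 members (52.4%, 95% Wilson interval 48.8 to 56.0), in 36.7% of the weaker promoter windows and in 19.8% of the strong windows away from promoters. Among 300 bases around all 22372 protein-coding starts the share was 11.1%. The shorter form CGGAAG, which is part of it, was in 70.1% of members and 54.3% of the weaker promoter windows. The NRF-1 motif GCGCATGC was in 4.08 and 2.5%, GGGCGG of SP and KLF factors in 54.5 and 58.3%, CCAAT of NFY in 24.6 and 22.0% and ACTACAA of ZNF143 in 5.43 and 3.72%. AAGATGGCG of YY1 was in 2.31 and 2.41%, TGACGTCA in 1.49 and 1.88%, the E-box CACGTG in 7.61 and 7.73% and TCTCGCGAG in 0.951 and 0.653%. Only the ETS words differed between the classes by more than 10 percentage points. At the members that had a gene that fell, CCGGAAG was in 46.4% of 166 windows, and at those without a called gene in 54.1% of 553.

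A search of all 2080 words of 6 bases, chosen after the data had been seen, then compared the central 150 bases of members with those of the weaker promoter windows on odd-numbered chromosomes. The leading word was CGGAAC, in 48% of 404 members and 14.7% of 1988 weaker windows. On the other chromosomes it led again, with 42.5% of 332 members and 15.3% of 1532 weaker windows. CCGGAA ranked second on both sets of chromosomes, with 61.9% of members and 36.3% of weaker windows on the first set. The words that followed were GGAACC (38.6 and 16.7%) and CGGAAG (55.7 and 37.1%). These words overlap each other. CGGAAC shares the core GGAA with the ETS motif but ends in C. In the central 300 bases it was found in 50.8% of members, 21.5% of the weaker promoter windows, 24% of the strong windows away from promoters and 10.4% of the 22372 protein-coding starts. For the other last bases the shares at members and weaker promoter windows were 32.2 and 21.8% for CGGAAA and 9.1 and 7.7% for CGGAAT. Both CGGAAC and CCGGAAG were in 26.8% of members, CGGAAC alone in 24.1%, CCGGAAG alone in 25.7% and neither in 23.5%. The median FLAG-Zbtb11 coverage of these windows was 541.6, 499.6, 492.3 and 399.5. At members with a gene that fell, CGGAAC was in 67.5% of 166 windows (60.0 to 74.1), and at those without a called gene in 45.8% of 553 (41.6 to 49.9).

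Among the genes that fell, the word often lay shortly before the start and read along the strand of the gene. Within 100 bases before the start, 84 of 175 protein-coding genes that fell (48%, 40.7 to 55.4) had CGGAAC along their strand, and 8 (4.57%) had it against. Among 650 target genes that were not called the shares were 12 and 7.23%, and among 3456 genes with a weaker window 3.88 and 4.63%. Of the 18 genes that rose none had it along in this zone and 4 had it against. Within 300 bases on each side of the start, the genes that fell held 140 words along and 39 against, the first with a median position of -51.5, and the genes that rose held 0 along and 14 against. The shorter GGAAC was along in 62.9% and against in 19.4% of the genes that fell, and in 22.3 and 15.8% of those not called. GGAAG, with the other last base, was along in 42.3% and against in 29.1% of the genes that fell, and in 39.9 and 40.2% of those not called.

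**Figure D4:**
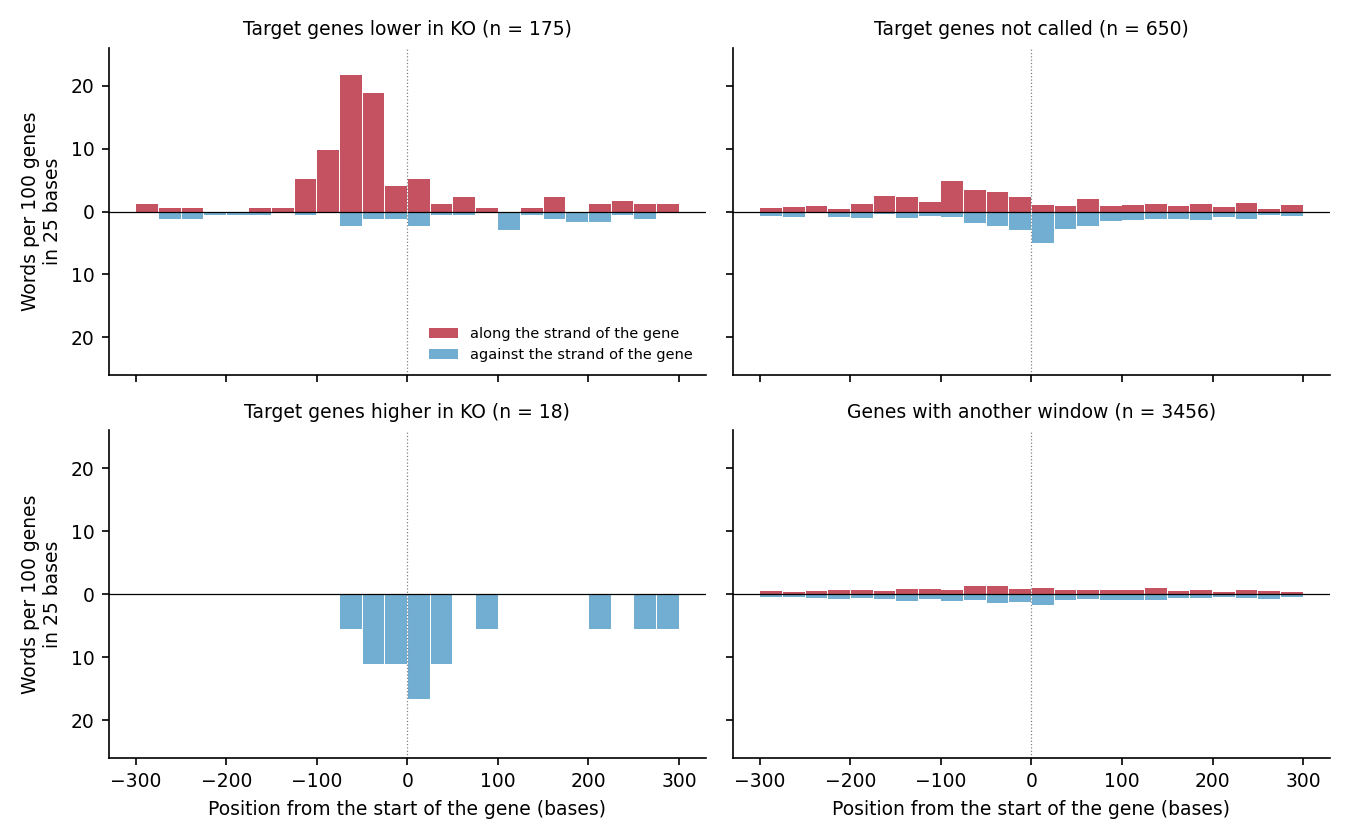
Number of CGGAAC words per 100 genes in bins of 25 bases by position from the start of the gene, upward for words along the strand of the gene and downward for words against it, for target genes that fell, rose or were not called and for genes with a weaker window. In the genes that fell the words along the strand gather before the start, with a median position of -51.5.

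Read the other way, the word before the start was set against the response. Of 153 target genes with CGGAAC along their strand only, within 100 bases before the start, 82 fell (53.6%, 45.7 to 61.3), none rose, and the median log2 fold change was -0.50. Of 50 genes with the word against the strand only 6 fell (12%, 5.62 to 23.8) and 4 rose, with a median of 0.00, and of 631 with neither 85 fell (13.5%, 11 to 16.4) and 14 rose, with a median of -0.04. Of the remaining 9, with the word in both directions, 2 fell and none rose. The same shares were 52.7, 10 and 12.8% on odd-numbered chromosomes and 54.8, 15 and 14.2% on the others. Among genes with a start within 100 bases of the centre and FLAG-Zbtb11 coverage in the upper 3 groups, the shares were 61.6, 26.1 and 27.8%. The median difference of the genes with the word along was -0.43, -0.54 and -0.51 in replicate numbers 1, 2 and 3, and that of genes with neither was 0.01, -0.06 and -0.02.

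Other settings kept this order. With 50 or 200 bases before the start, or with the first annotated start of each gene, the share that fell was 54.7, 45.6 and 53.1% with the word along the strand. With all 3 replicates it was 33.3%, and with all 3 and the replicate block 58.2%. Under these settings the share was 6 to 14% with the word against the strand and 8.88 to 18.4% with neither.

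The number of copies went with the share that fell. Of genes with no GGAAC along the strand in the 100 bases 11.1% of 585 fell, with 1 copy 39.9% of 208, with 2 copies 51.3% of 39 and with 3 or more copies 63.6% of 11. The last group rests on few genes, and its interval runs from 35.4 to 84.8%. *Trdmt1* and *Hus1*, shown above, belong to the genes with several copies. *Pigq*, with a log2 fold change of -2.67, has none in the 150 bases printed, which precede a start inside the gene. GGAAC, the leading word without its first base, was chosen after sequences had been seen. Since both words were taken from the same windows, these shares are a description, and a match does not show that a factor binds there.

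At most windows with 2 tested protein-coding genes neither was called, and where a gene was called its partner often was not. The difference between partners was itself not tested. Both genes were tested at 135 of 159 such windows, and 133 of the pairs lay on opposite strands with a median distance of 149 bases between the starts. Both genes fell in 9 pairs, 1 fell and the other was not called in 14 pairs (the nearer gene) and 9 pairs (the farther gene), and neither was called in 94. The pairs that fell together included *Vti1a* and *Zdhhc6*, *Alg3* and *Ece2*, *Slc4a1ap* and *Supt7l*, *Efcab7* and *Itgb3bp*, *Pex3* and *Adat2* and *Mrpl30* and *Mitd1*. *1110034B05Rik* (-1.45 ± 0.20) and *9430016H08Rik* (-1.48 ± 0.16), 209 bases apart, also fell together. At pairs with 1 call, *Ube3b*, a ubiquitin ligase, fell by 0.75 on the log2 scale and *Kctd10* changed by -0.12 ± 0.10, and *Gtpbp3* fell by 1.19 and *Ano8* changed by -0.36 ± 0.16. *Nsa2*, a factor of ribosome biogenesis, changed by -0.30 (adjusted p = 0.0418 in edgeR) and *Gfm2*, a factor of mitochondrial translation, by -0.15 ± 0.07. The call at *Nsa2* was lost with all 3 replicates, library sizes, DESeq2, no filter on low counts, and without any 1 of the EtOH control and *Zbtb11* KO libraries of replicates 2 and 3. At 1 window the genes went opposite ways. *1300018I17Rik* measured 9.39, 8.56 and 10.5 CPM in the EtOH control and 19.0, 16.5 and 17.9 CPM in *Zbtb11* KO (0.86 ± 0.13). *Zfp276*, 32 bases away on the other strand, measured 7.28, 8.12 and 7.28 CPM and 3.31, 4.48 and 4.77 CPM (-0.73 ± 0.15, adjusted p = 0.0376 in edgeR). The call at *1300018I17Rik* was lost without EtOH control replicate 2 and without *Zbtb11* KO replicate 3. The call at *Zfp276* was lost with all 3 replicates (adjusted p = 0.187 in edgeR), with library sizes in place of TMM scaling, with DESeq2 and without any 1 of the EtOH control and *Zbtb11* KO libraries of replicates 2 and 3, and this gene overlaps *Gm20388* and has near-identical stretches elsewhere.

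Genes that rose were more often at windows shared by 2 protein-coding genes than at windows with a single one, and this difference was not tested. Of 291 tested genes at windows with 2 protein-coding genes 11 rose (3.78%) and 43 fell (14.8%), and of 544 at windows with a single one 6 rose (1.1%) and 130 fell (23.9%). The tested partners of genes that rose numbered 9, and 8 of them had a negative sign, with a median of -0.25, while 62.5% of all tested target genes had a negative sign. The exception was *1810024B03Rik*, the partner of *Snrnp200*, at 1.38 ± 0.31 (adjusted p = 0.0606 in edgeR), which was called with the replicate block. *Nosip*, the partner of *Prrg2*, changed by -0.02 ± 0.08, *Ndufs3*, the partner of *Kbtbd4*, by -0.25 ± 0.08, and *Mrpl21*, the partner of *Ighmbp2*, by -0.31 ± 0.08. None of these passed the test, and *Mrpl21* passed it with the replicate block. *Nosip* shares near-identical stretches with 13 other genes. Whether the counting of reads used the strand is not given in the sources used here, and without it reads where such genes overlap cannot be told apart.

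**Figure D5:**
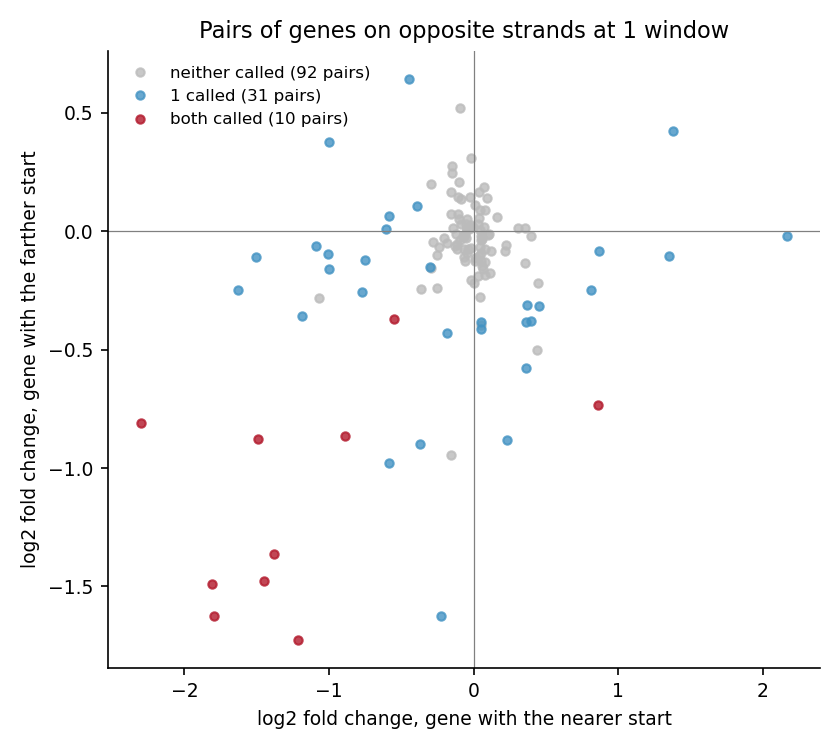
Log2 fold change between *Zbtb11* KO and EtOH control for pairs of genes on opposite strands at the same strong window, the gene with the nearer start on the x axis and the other on the y axis; colours give which genes were called. In 9 pairs both genes fell, and in the pair of *1300018I17Rik* and *Zfp276* the genes moved in opposite directions.

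The 4OHT control gives the same genes in cells without the floxed alleles. Compared with the EtOH control, 81 target genes were lower in it (9.31%, background 8.22%) and 67 were higher (7.7%, background 8.86%), both close to the background. With the replicate block the counts were 126 (background 13.5%) and 124 (14.1%). Without EtOH control replicate 2 they were 37 (3.81%) and 21 (3.58%), and without replicate 3 they were 26 (3.11%) and 19 (2.99%). Without 4OHT control replicate 2 they were 47 (6.09%) and 52 (6.28%). Between *Zbtb11* KO and the 4OHT control 247 were lower (28.4%, background 10.3%) and 99 higher (11.4%, background 8.38%). With the replicate block the counts were 298 (background 15.7%) and 132 (13.7%). Without *Zbtb11* KO replicate 2 they were 195 (5.6%) and 62 (4.44%), and without replicate 3 they were 187 (5%) and 54 (3.82%). The 3 comparisons share libraries and are not independent. For the 175 genes that fell, the median log2 fold change was -1.03 in *Zbtb11* KO against the EtOH control, -1.19 against the 4OHT control and 0.09 between the controls, where the quartiles were -0.06 and 0.25 and the range -1.87 to 1.03. For the 18 that rose the medians were 0.63, 0.74 and -0.11, with a range of -0.82 to 0.22 between the controls.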

How the data were processed

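Mouse ESCs were profiled by ChIP-seq (4 Zbtb11 and 3 FLAG-Zbtb11 libraries) and by directional, rRNA-depleted RNA-seq (9 libraries). Per the labels and methods, the authors trimmed ChIP-seq reads, aligned them to mm9 with Bowtie 1.1.2, called peaks with MACS2 under an irreproducible discovery rate and had DiffBind compute normalised coverage, deposited as a signal over 7500 consensus windows. For RNA-seq the authors aligned reads with STAR and deposited raw HTSeq counts per GENCODE gene. HTSeq's strand setting is not given in the sources used here. FLAG control and input libraries were not analysed here.

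Windows were classed by their mean coverage over the Zbtb11 libraries (limit 308.9) and by overlap with promoters of GENCODE vM1 transcripts, 2000 bases upstream to 500 downstream. All 37310 gene identifiers matched that annotation. Rows that name no gene were left out (25.3 to 31.6% of counts not on a gene, 0.79 to 0.905% ambiguous). Genes above 1 CPM in at least 2 libraries were tested with edgeR 4.0.16 (TMM, quasi-likelihood F test, Benjamini-Hochberg over all 14172 genes) in R 4.3.3. The 3 groups were fitted together with replicates 2 and 3 of each. A CPM value is a count per library size after TMM scaling over all 9 libraries. Replicate numbers were taken to pair the groups because samples with the same number deviated together in every pair (r between 0.43 and 0.82), while unlike numbers gave r between -0.753 and 0.526. Within replicates 2 and 3 the ranges overlapped (0.43 to 0.685 for the same and 0.294 to 0.526 for unlike numbers), so the pairing rests largely on replicate 1. In counts simulated for *Zbtb11* KO against EtOH control over 13982 genes, 199 of 200 changed genes were called, with 3 false calls. These counts came from a model, so the recovery of small decreases and of genes at low levels in the real libraries was not tested. DESeq2 1.42.0, other filters, scalings and designs and the omission of each library were tried as alternatives.

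Sequences, motifs and GC content were read from mm9 with pysam 0.24.0. Near-identical stretches were sought with blastn 2.17.0. The members and the gene lists were chosen with earlier results of these data known. The leading word, its shorter form GGAAC, the zone before the start and the settings were chosen after the data were seen. Target genes are named where they were among the 20 largest decreases called and lower in every replicate number, among up to 8 increases, at the 10 strongest windows, among up to 4 called and 2 highly expressed not called genes per list, at windows next to the limit, in pairs with 1 or 2 called genes (up to 6 each), at the 8 strongest windows without a call, or regulators of mitochondrial genes. Further genes of a list or with an increase were named after their values were seen. Shares carry 95% Wilson intervals, which cover counting error only. ± gives the standard error of a log2 fold change.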

Additional observations from a re-analysis of the deposited data

How the results depend on the processing

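The 175 decreases and 18 increases of target genes in *Zbtb11* KO against the EtOH control kept their sign under every alternative that tested them (169 of the 175 were tested above 5 CPM). No named gene that was called in the main fit or in an alternative changed sign between them. Changes of sign at genes called in neither were not counted. With all 3 replicates 112 and 8 of them were called again, where the biological coefficient of variation was 0.174 in place of 0.068. With the replicate block, which pairs the groups, 207 target genes were lower and 30 higher, including all 175 and 18, and with all 3 replicates and the block 209 and 41. Between the controls the block gave 126 lower and 124 higher, and all 3 replicates gave 20 and 12 without it and 150 and 143 with it. *Zbtb11* KO against the 4OHT control gave 164 lower and 48 higher with all 3 replicates, and 167 higher with the block added. At an adjusted p under 0.01, 9 target genes were higher in *Zbtb11* KO than in the EtOH control, 33 were lower and 25 higher in the 4OHT control than in the EtOH control, and 59 were higher in *Zbtb11* KO than in the 4OHT control. DESeq2 called 42 genes higher in the 4OHT control.

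Leaving out single libraries of replicates 2 and 3 gave 131 to 187 lower and 7 to 26 higher genes in *Zbtb11* KO against the EtOH control, 26 to 111 lower and 19 to 80 higher in the 4OHT control, and 187 to 247 lower and 54 to 118 higher in *Zbtb11* KO against the 4OHT control. Each such fit leaves 1 group with a single library, which is assumed to vary like the others. Without *Zbtb11* KO replicate 3, 129 of the 175 and 7 of the 18 were called again. *Zfp276* and *Nsa2* lost their call most often. With all 3 replicates, *Ece2*, *Ighmbp2*, *Snrnp200*, *Ssbp1*, *Trp53rk* and *Vps25* also lost theirs among the genes named above. The median log2 fold change of target genes was -0.015 with library sizes in place of TMM scaling. CCGGAAG was in 63.2% of members over the whole window and in 28.7% over the central 100 bases, and CGGAAG in 70.1%. Starts on both strands were at 26.6% of members when all transcript types were used. Leaving out 1 ChIP-seq replicate gave 719 to 750 strong promoter windows. For 70.3% of target genes the 95% interval of the change lay within 1.5-fold, which is the precision that 2 libraries per group gave.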
